A study of Mus musculus with 4 samples.

Results

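The cytochrome P450 genes of mouse small-intestinal adenomas were followed across 6 kinds of cell. All symbols of the gene tables that consist of Cyp, a number, a letter and a number were taken, which gave 100 genes. Of these, 99 were among the 27514 genes listed in all 4 libraries, and Cyp2d37-ps, a pseudogene, was listed in the kit 2 libraries only. The rule also took Cyp4x1os, an antisense RNA, and it left out Cyp51, whose symbol has another form. The libraries were single-cell RNA sequencing libraries of adenomas from C57BL/6 mice labelled as male and aged 11 weeks. The 2 libraries labelled ApcMin came from ApcMin/+;Lef1 +/+ mice, heterozygous for the Min mutation of Apc, a brake on Wnt signaling, with intact Lef1. The 2 libraries labelled VApcMinL came from ApcMin/+;Lef1 fl/fl;Villin-Cre mice, in which the Villin promoter drives Cre in the intestinal epithelium and so removes floxed Lef1 there constitutively. Both groups thus carry the Apc mutation, and no library of normal intestine was used here. Replicate 1 of each label was made with kit version 2 and replicate 2 with kit version 3 of the 10x Genomics 3′ chemistry. Each library pooled several unsorted tumors, and the labels do not say how many mice gave them, so p-values measure the spread between libraries, which may be technical.

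Cytochrome P450 enzymes are haem proteins that insert an oxygen atom into fats, steroids, vitamins and foreign compounds. Those of the endoplasmic reticulum take their electrons from the reductase encoded by Por, and those of mitochondria from ferredoxin. In the small intestine they are best known from the enterocytes of the villus, where CYP3A enzymes oxidise many swallowed drugs before these reach the blood.

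Barcodes with at least 2000 UMIs (unique molecular identifiers, 1 per captured transcript) and at most 20% mitochondrial UMIs were kept, which left from 2071 to 4217 barcodes per library with medians from 10879.5 to 26205 UMIs. The mitochondrial limit removed 61.6% of the barcodes of ApcMin replicate 2 and from 20.4% to 26.5% of those of the others. At most 9 barcodes were shared by any pair of libraries. Cells were assigned by summed marker genes, none of which is a P450 gene, as enterocytes, villus-tip enterocytes, crypt cells, adenoma cells, tuft cells and macrophages. From 276 to 836 enterocytes, 34 to 199 villus-tip cells, 66 to 117 crypt cells, 357 to 2140 adenoma cells, 9 to 38 tuft cells and 24 to 101 macrophages were found per library. All markers of each class were detected in that class in every library. Levels are CPM, the UMIs of a gene per 1000000 UMIs of a class. They count 3′ ends and were not divided by transcript length, and their counting error is small only for well-covered genes. The values of the 4 libraries are always listed in the same order, first the kit 2 libraries (ApcMin, then VApcMinL) and then the kit 3 libraries (ApcMin, then VApcMinL).

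Of the 99 genes, 18 had no UMI in any kept barcode, 35 had from 1 to 19 UMIs and 46 had at least 20. In the 6 classes, 33 genes reached 100 UMIs. By role, at least 20 UMIs were counted for 2 of 3 CYP1 genes, 21 of 47 CYP2 genes, 3 of 9 CYP3 genes, 11 of 21 CYP4 genes, 5 of 12 genes of sterol, bile acid and steroid metabolism, 3 of 6 genes of vitamin A and vitamin D metabolism, and Cyp20a1, an orphan enzyme. The absence of UMIs sets a limit for these libraries and does not show that a gene was silent.

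The genes lie close together in the genome, and neighbors differed widely in their counts. On GRCm38 (GENCODE M21), 74 of the 100 genes fell into 8 runs of at least 3 members with gaps under 1000000 bases. The Cyp2c run at chr19:39007019-40187333 holds 14 members, of which Cyp2c55, Cyp2c65, Cyp2c66, Cyp2c29 and Cyp2c68 reached 100 UMIs and 5 had none. The Cyp3a run at chr5:145345279-146113287 holds 8 members, of which Cyp3a11 and Cyp3a25 reached 100 UMIs. Cyp3a13 lies outside it at chr5:137892932-137921619. The Cyp4f run at chr17:32452723-32947402 holds 8 members, of which Cyp4f13, Cyp4f14, Cyp4f16 and Cyp4f40 reached 100 UMIs. Neighbors could differ in the cells that held them. In the run at chr7:25802475-27158668, Cyp2b10 and Cyp2s1 were highest of the 6 classes in enterocytes and Cyp2a5 in adenoma cells. Outside the 6 classes Cyp2a5 was higher, at 27.2 CPM in Paneth cells. Members of the Cyp2a, Cyp2c, Cyp3a and Cyp4a groups are close copies, so their separate counts are uncertain where reads could be split between them.

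Enterocytes held by far the most P450 transcripts. The P450 genes summed to 2893, 3253, 3129 and 2611 CPM in enterocytes and to 1590, 2151, 1542 and 1559 in villus-tip cells. They summed to 171, 172, 203 and 209 in crypt cells, 195, 217, 261 and 219 in adenoma cells, 359, 284, 343 and 224 in tuft cells, and 375, 403, 409 and 378 in macrophages. The ranges of enterocytes and villus-tip cells overlapped with those of no other class. In enterocytes from 41 to 57 of the genes were detected, and the 5 most abundant made up from 59.3% to 63.4% of the sum. Cells with a marker level between crypt and enterocyte, called intermediate here, summed to 708, 470, 835 and 694.

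Among the CYP3 enzymes, which oxidise drugs and steroids, 3 genes were abundant in enterocytes. Cyp3a11 (chr5:145854426-145879964, minus strand), the main drug-oxidising CYP3A of the mouse, stood at 360, 611, 303 and 392 CPM. Cyp3a13 stood at 378, 415, 294 and 179, and Cyp3a25 at 298, 279, 373 and 263. Cyp3a11 was highest in VApcMinL replicate 1, and Cyp3a13 was lowest in VApcMinL replicate 2. Cyp3a11 was higher and Cyp3a25 lower in the VApcMinL than in the ApcMin library of each kit, and Cyp3a13 went opposite ways in the kits. The tests between the labels are given below.

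The CYP4 enzymes hydroxylate the far end of fatty acids and of lipid mediators. Cyp4f14 (chr17:32905070-32917342, minus strand), which acts on leukotriene B4, was the most abundant P450 gene of enterocytes in 3 of the 4 libraries, at 445, 378, 575 and 477. Cyp4v3, a fatty acid hydroxylase, stood at 235, 278, 183 and 157. Cyp4f16 stood at 107, 120, 93.9 and 86.5. The kit 3 libraries were lower than the kit 2 libraries for Cyp4v3 and Cyp4f16. Cyp4b1 stood at 31.8, 20.4, 48.2 and 36.8, Cyp4f13 at 27.8, 33.5, 37.1 and 31.5, and Cyp4f40 at 21.9, 8.56, 19.6 and 15.2. Cyp4a10, a fatty acid hydroxylase induced through PPAR alpha, stood at 12.1, 13.1, 4.03 and 4.28, with both kit 2 libraries above both kit 3 libraries.

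The CYP2 enzymes oxidise drugs, and several form epoxides of arachidonic acid. Cyp2d26 stood at 220, 285, 337 and 235 in enterocytes. Cyp2j6, an epoxygenase, stood at 147, 91.5, 265 and 287, and both kit 3 libraries were above both kit 2 libraries. The 5 genes of the Cyp2c run with at least 100 UMIs spanned a wide range. Cyp2c65 stood at 203, 253, 173 and 98.7, Cyp2c55 at 48.3, 110, 72.0 and 43.5, and Cyp2c66 at 55.6, 82.3, 49.6 and 38.4. Cyp2c68 stood at 40.6, 54.3, 87.5 and 68.1, and Cyp2c29 at 1.10, 9.74, 5.83 and 5.56. Cyp2c29 was thus the lowest of the 5 in every library. Cyp2b10, the classic target of the drug-sensing receptor CAR (Nr1i3), stood at 118, 113, 98.5 and 61.2. Cyp2s1, an extrahepatic enzyme, stood at 76.0, 40.4, 36.5 and 45.8.

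**Figure D1:**
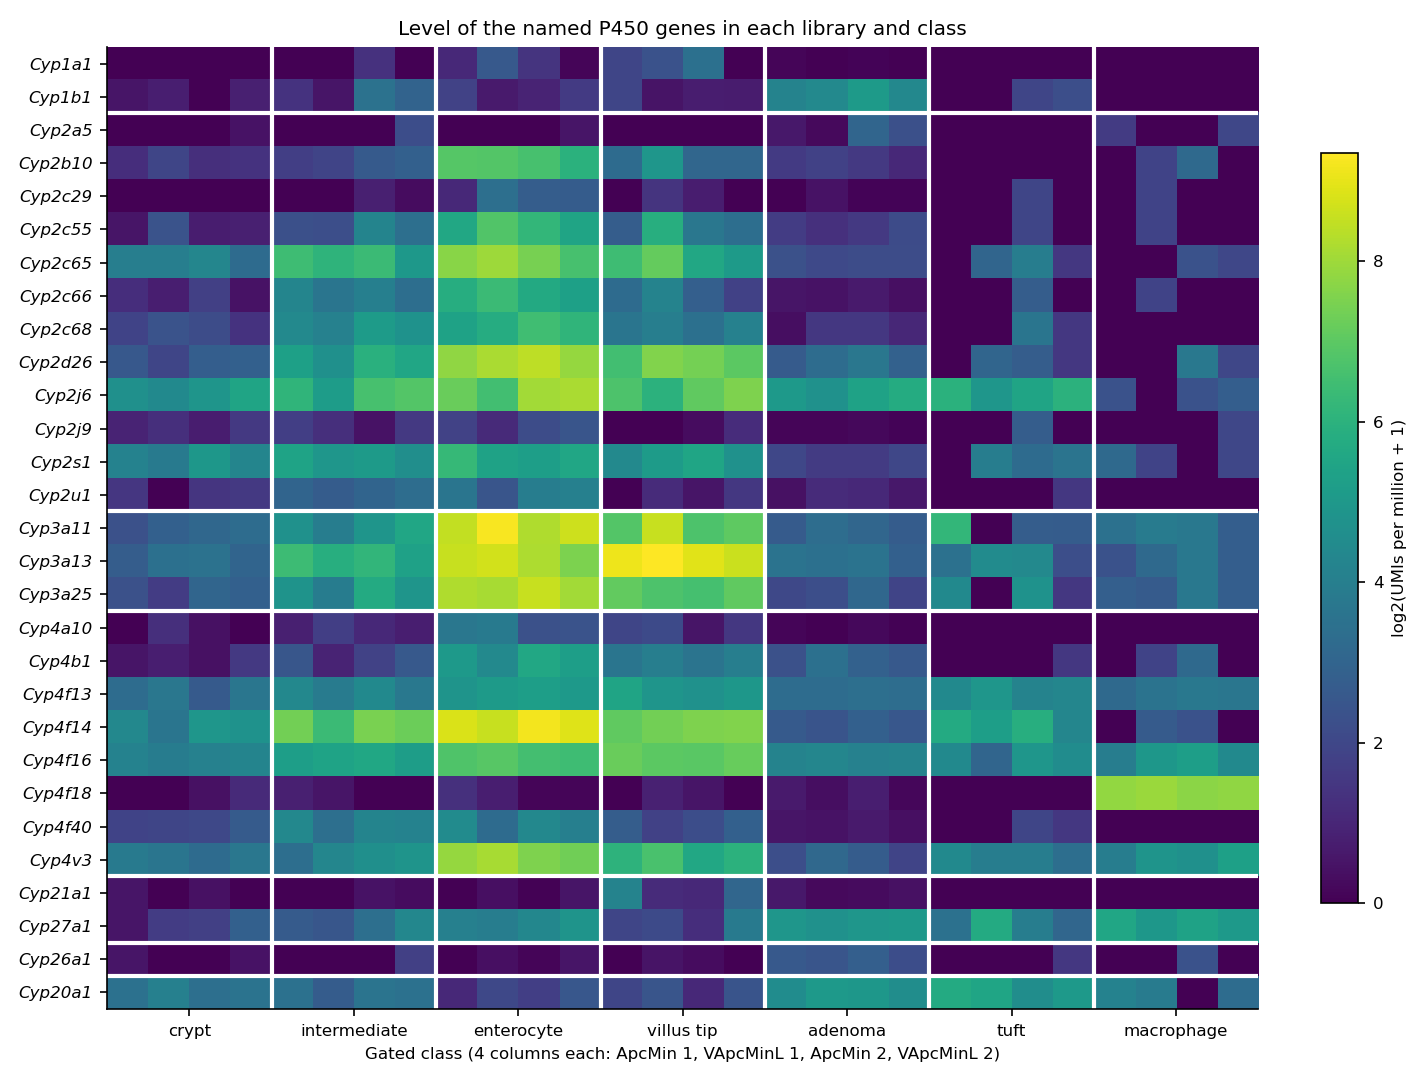
Level of the 29 named P450 genes (rows, grouped by role) in each library of each cell class (columns, 4 per class), as log2 of CPM plus 1. Most rows are brightest in the enterocyte columns, Cyp4f18 is bright in macrophages alone, and Cyp1b1 and Cyp26a1 are brightest in adenoma cells.

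The starts of 3 abundant enterocyte genes are shown because they share a motif that few other promoters hold. HNF4 factors, nuclear receptors of hepatocytes and enterocytes, bind a repeat that contains CAAAGTCCA. These letters, searched on both strands of the 250 bases before and 50 bases after each start in RefSeq (GRCm38.p6), occurred in 0.555% of 27025 genes. They occurred in 11 of the 76 P450 genes with a promoter in that table (14.5%), and these 11 lie mainly in the Cyp2c and Cyp3a runs of near-copies. The promoters of Cyp3a11 (chr5:145879805-145880104, minus strand), Cyp2c65 (chr19:39060756-39061055, plus strand) and Cyp2c68 (chr19:39741052-39741351, minus strand) read as follows, with the motif in capitals.
Cyp3a11: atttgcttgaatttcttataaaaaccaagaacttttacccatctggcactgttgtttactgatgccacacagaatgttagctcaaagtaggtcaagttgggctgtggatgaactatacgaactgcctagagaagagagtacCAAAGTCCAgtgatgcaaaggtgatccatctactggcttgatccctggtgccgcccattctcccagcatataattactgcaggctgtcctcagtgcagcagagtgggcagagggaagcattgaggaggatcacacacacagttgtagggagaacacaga
Cyp2c65: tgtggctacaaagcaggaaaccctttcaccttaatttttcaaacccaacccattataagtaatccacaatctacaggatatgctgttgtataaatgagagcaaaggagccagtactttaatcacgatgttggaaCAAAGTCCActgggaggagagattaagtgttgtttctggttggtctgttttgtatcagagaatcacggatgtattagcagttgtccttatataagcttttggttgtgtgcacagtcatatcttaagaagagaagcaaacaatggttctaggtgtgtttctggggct
Cyp2c68: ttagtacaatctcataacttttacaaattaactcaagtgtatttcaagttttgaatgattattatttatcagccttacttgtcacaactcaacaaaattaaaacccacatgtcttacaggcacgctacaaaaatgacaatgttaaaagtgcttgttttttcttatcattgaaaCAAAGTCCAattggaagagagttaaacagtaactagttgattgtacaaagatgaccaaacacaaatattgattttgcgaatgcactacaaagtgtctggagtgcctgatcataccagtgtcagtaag
Of the genes described below as higher in enterocytes than in adenoma cells, 21 had a promoter in the table and these 3 held the motif. Of those lower in enterocytes, 4 had a promoter and 0 held it. The share among the 21 genes was near that among all 76 P450 genes. Cyp3a41a and Cyp8b1 held the motif too and had no UMI in kept barcodes, so it did not single out genes high in enterocytes. Other motifs were also searched and are not shown. A match describes the letters only, and binding was not measured.

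The question of how the P450 genes of tumor cells differ from those of absorptive cells was addressed by comparing enterocytes with adenoma cells of the same libraries. Nearly all of the genes that make up the enterocyte repertoire were far lower in adenoma cells, and a small set was higher there. The test was edgeR's quasi-likelihood test on UMIs summed per library and class, with the library as a block and p-values adjusted over all genes tested, called under 0.05. Of the 34 P450 genes that passed the filter on low counts, 25 were higher in enterocytes (33.9% of the 13190 genes tested were higher) and 5 were lower (39.2% were lower). Their median log2 difference was 5.15, against -0.13 for all genes. Fitted differences follow TMM scaling and can exceed the ratio of CPM by over 1.5 times, so that Cyp3a11, at a fitted 94.3-fold, kept 1.73% of its enterocyte CPM in adenoma cells. With library totals alone the median of all genes was -0.81. A gene with low counts enters such a test mainly through the class in which it is high, so these counts describe the tested genes only.

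Among the CYP3 genes, Cyp3a11 stood at 5.39, 9.13, 7.54 and 5.66 CPM in adenoma cells, a fitted 94.3-fold below enterocytes (log2 difference 6.56 ± 0.19 SE, adjusted p = 6.61e-08 in edgeR). Cyp3a13 stood at 10.8, 9.87, 10.7 and 6.27, 51.7-fold lower. Cyp3a25 had a log2 difference of 6.91 ± 0.20. No adenoma value of Cyp3a11 or Cyp3a13 came near an enterocyte value.

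Among the CYP4 genes, Cyp4f14 stood at 5.31, 4.43, 6.30 and 4.79 in adenoma cells, with a log2 difference of 7.16 ± 0.19 (adjusted p = 6.61e-08). Its neighbors in the Cyp4f run differed less. Cyp4f13 stood at 8.87, 8.95, 9.56 and 9.04 in adenoma cells, with a log2 difference of 2.50 ± 0.16. Cyp4f16 stood at 17.0, 18.6, 16.2 and 17.1, with a log2 difference of 3.21 ± 0.14. Both genes were nearly equal in the 4 libraries, and Cyp4f13 and Cyp4f16 kept 28.3% and 17.1% of their enterocyte level in adenoma cells, where Cyp4f14 kept 1.12%. Cyp4a10 differed by 7.10 ± 0.49 on 6 UMIs in adenoma cells.

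Among the CYP2 genes, Cyp2c66 had the highest log2 difference of all P450 genes tested, 7.64 ± 0.21, and stood at 0.435, 0.369, 0.580 and 0.306 in adenoma cells. Cyp2b10 stood at 2.0, 2.49, 1.96 and 1.13 there, 82.4-fold lower. Cyp2j6 differed less, at 31.8, 25.6, 41.2 and 53.4 in adenoma cells and a log2 difference of 2.96 ± 0.20. It was the most abundant P450 gene of adenoma cells in 3 of the 4 libraries.

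Genes higher in adenoma cells came from several roles. Cyp1b1 (chr17:79701537-79715061, minus strand), which oxidises estrogens and aromatic pollutants and is induced through the aryl hydrocarbon receptor, stood at 17.2, 19.9, 33.5 and 19.5 in adenoma cells and at 2.56, 0.590, 0.920 and 2.0 in enterocytes. All adenoma values lay above all enterocyte values, and enterocytes were lower by 10.7-fold (log2 difference -3.42 ± 0.37, adjusted p = 5.75e-05). Its relative Cyp1a1 went the other way, at 1.10, 5.16, 1.66 and 0.0911 in enterocytes against 2 UMIs in all adenoma cells, a ratio of 87.4 with a counting interval from 23.4 to 734. Cyp26a1 (chr19:37697798-37701536, plus strand), which breaks down retinoic acid, stood at 5.13, 4.52, 6.09 and 3.59 in adenoma cells and below 0.5 in each enterocyte library, and enterocytes were lower by a log2 difference of -3.70 ± 0.57. Outside the 6 classes Cyp26a1 was higher, at 23.6 in 128 endothelial cells (exact Poisson 95% interval from 14.2 to 36.8, 19 UMIs in 2 libraries). Cyp20a1 (chr1:60343323-60388060, plus strand) stood at 22.1, 32.1, 29.5 and 23.0 in adenoma cells and at 1.10, 3.1, 2.37 and 4.74 in enterocytes. Cyp39a1, an oxysterol hydroxylase of bile acid synthesis, had a log2 difference of -1.86 ± 0.33. Cyp2a5, which oxidises nicotine and coumarin, stood at 0.522, 0.184, 7.17 and 3.86 in adenoma cells, so the call rests on the kit 3 libraries. It could not be tested without either of them, and its close copy Cyp2a4 makes its count uncertain.

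Cyp27a1 (chr1:74713574-74737892, plus strand), the mitochondrial sterol 27-hydroxylase, stood at 29.2, 25.8, 29.3 and 31.1 in adenoma cells and at 15.7, 14.5, 19 and 27.7 in enterocytes. Its log2 difference was 0.07 ± 0.18 (adjusted p = 0.745) under the scaling used here. With library totals alone as the scaling, the median of all genes moved from -0.13 to -0.81, and Cyp27a1 was called lower in enterocytes at -0.61 (adjusted p = 0.00909). With a mitochondrial limit of 10% it was also called lower, at -0.74 (adjusted p = 0.0164). Its direction therefore depends on these settings. With library totals alone 24 P450 genes were higher and 6 lower, against 2750 higher and 7631 lower of all 13190 genes tested.

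Several values moved with this comparison. Barcodes of 10 to 100 UMIs, which hold mostly free RNA, carried 689, 1005, 654 and 500 CPM of P450 genes, above the sum in adenoma cells. For 12 other enterocyte genes that are not markers of the gate, the median level in adenoma cells was from 1.01% to 1.92% of the enterocyte level, and their sum was 1294, 670, 571 and 1326 CPM there. Single reference genes ran from 0.537% to 32.7%. Within that span lay Cyp2c66 at 0.799%, Cyp4f14 at 1.12%, Cyp3a11 at 1.73% and Cyp4f13 at 28.3%. Cyp20a1 stood at 31.5, 37.8, 32.6 and 31.5 CPM in the free-RNA barcodes and Cyp4b1 at 119, 121, 53.1 and 47.7, in each library above their adenoma level. The median share of mitochondrial UMIs was from 11.5% to 13.6% in enterocytes and from 3.68% to 5.90% in adenoma cells. The part of free RNA and of RNA quality in these differences was not tested.

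**Figure D2:**
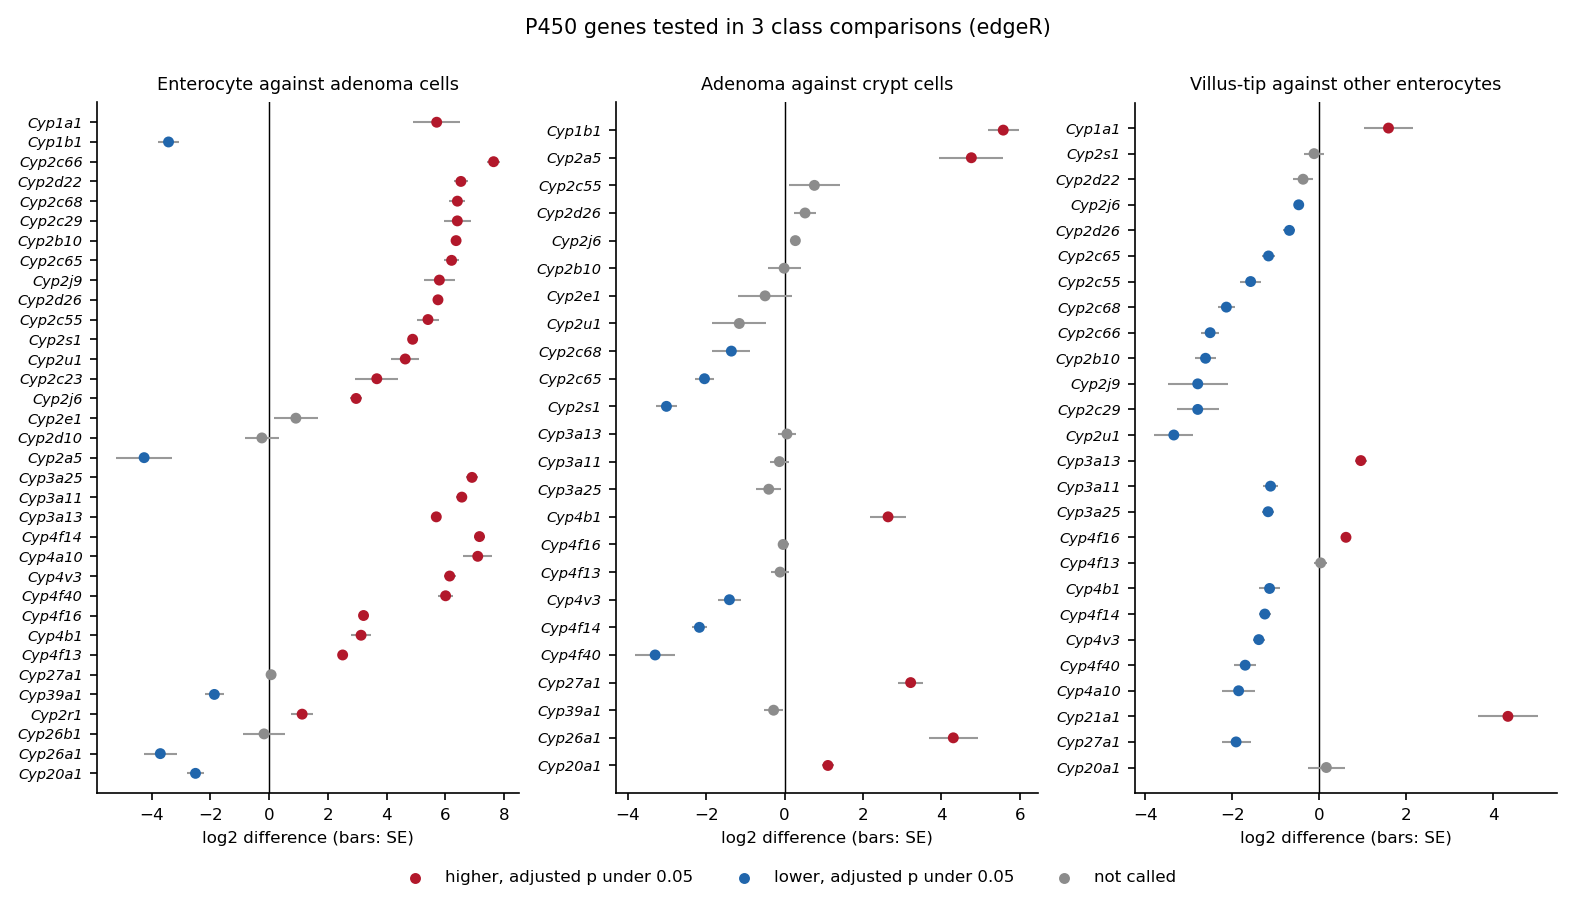
Log2 difference (horizontal axis, bars are SE) of each P450 gene tested by edgeR, ordered by role, in 3 comparisons, with called genes in red (higher) and blue (lower). Enterocytes are above adenoma cells for 25 of 34 genes, adenoma cells are above crypt cells for 6 of 24 and below for 6, and villus-tip cells are below other enterocytes for 18 of 26.

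Adenoma cells were compared with crypt cells, gated by crypt markers and a low level of adenoma markers, to ask which P450 genes differed. All libraries were of adenomas, and whether the crypt gate holds tumor cells was not tested. Summed P450 levels were alike in size. Single genes differed in both directions, at shares near those of all genes. Of 24 genes tested, 6 were higher in adenoma cells (27.4% of 12436 genes were higher) and 6 were lower (20.5% were lower), with a median of -0.07 against 0.07 for all genes. The adenoma sums are the same as in the comparison with enterocytes.

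Cyp1b1 differed most. It stood at 0.449, 0.710, 0 and 0.777 in crypt cells (4 UMIs in all), below every adenoma library, with a log2 difference of 5.58 ± 0.40 (47.8-fold, adjusted p = 3.52e-06). Cyp26a1 had 2 UMIs in crypt cells and a ratio of 19.2 with a counting interval from 5.28 to 159. Cyp27a1 stood at 0.449, 2.13, 2.43 and 6.22 in crypt cells, all below the adenoma values, with a log2 difference of 3.22 ± 0.32 (adjusted p = 3.03e-05). Cyp27a1 thus separated adenoma from crypt cells, whereas its call between adenoma cells and enterocytes depended on the settings. Cyp4b1 stood at 4.00, 9.96, 6.45 and 5.10 in adenoma cells and at 0.449, 0.710, 0.347 and 1.94 in crypt cells, with a log2 difference of 2.64 ± 0.46. Cyp20a1 stood at 10.3, 15.6, 9.70 and 10.9 in crypt cells, with a log2 difference of 1.11 ± 0.16, a call lost with cells thinned to 2000 UMIs (1.07, adjusted p = 0.0846 in edgeR). Cyp2a5 had 1 UMI in crypt cells, a ratio of 32.1 with a counting interval from 5.73 to 1272, and again came mainly from the kit 3 libraries.

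The genes lower in adenoma than in crypt cells were members of the CYP2 and CYP4 families, which give 21 and 11 of the 46 genes with at least 20 UMIs. Cyp2s1 stood at 16.6, 13.5, 29.8 and 17.9 in crypt cells and at 2.96, 2.12, 2.1 and 2.96 in adenoma cells, without overlap (log2 difference -3.01 ± 0.26, adjusted p = 1.23e-05). It kept 44.0% of its enterocyte level in crypt cells, a share exceeded among the named genes called higher in enterocytes by the rare Cyp2j9 (54.6%) alone, and 5.34% in adenoma cells. Cyp4f40 stood at 2.69, 2.84, 3.12 and 5.44 in crypt cells and at 0.435, 0.369, 0.580 and 0.289 in adenoma cells (log2 difference -3.30 ± 0.50). Cyp4f14 stood at 19.7, 11.4, 29.1 and 26 in crypt cells, also without overlap with adenoma cells. Cyp2c65, Cyp4v3 and Cyp2c68 had log2 differences of -2.04 ± 0.24, -1.41 ± 0.30 and -1.36 ± 0.48. The call of Cyp2c68 was lost with library totals as the scaling and without ApcMin replicate 1, VApcMinL replicate 1 or ApcMin replicate 2 (log2 difference from -1.54 to -1.01).

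The CYP3 genes, in contrast, passed no test between adenoma and crypt cells. Cyp3a11 stood at 4.04, 6.39, 7.62 and 8.94 in crypt cells, overlapping with adenoma cells, and had a log2 difference of -0.13 ± 0.25 (adjusted p = 0.698). Cyp3a13 had a log2 difference of 0.06 ± 0.22. The 12 enterocyte genes used as a reference summed to 2946, 3637, 3632 and 4181 CPM in crypt cells, above the adenoma cells, and their median level was from 2.22% to 3.08% of that in enterocytes. Immature absorptive cells within the crypt gate cannot be told apart from higher expression per crypt cell. Genes of 6 fibroblast markers summed to at most 19.8 CPM in adenoma cells and 9.87 in crypt cells.

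**Figure D3:**
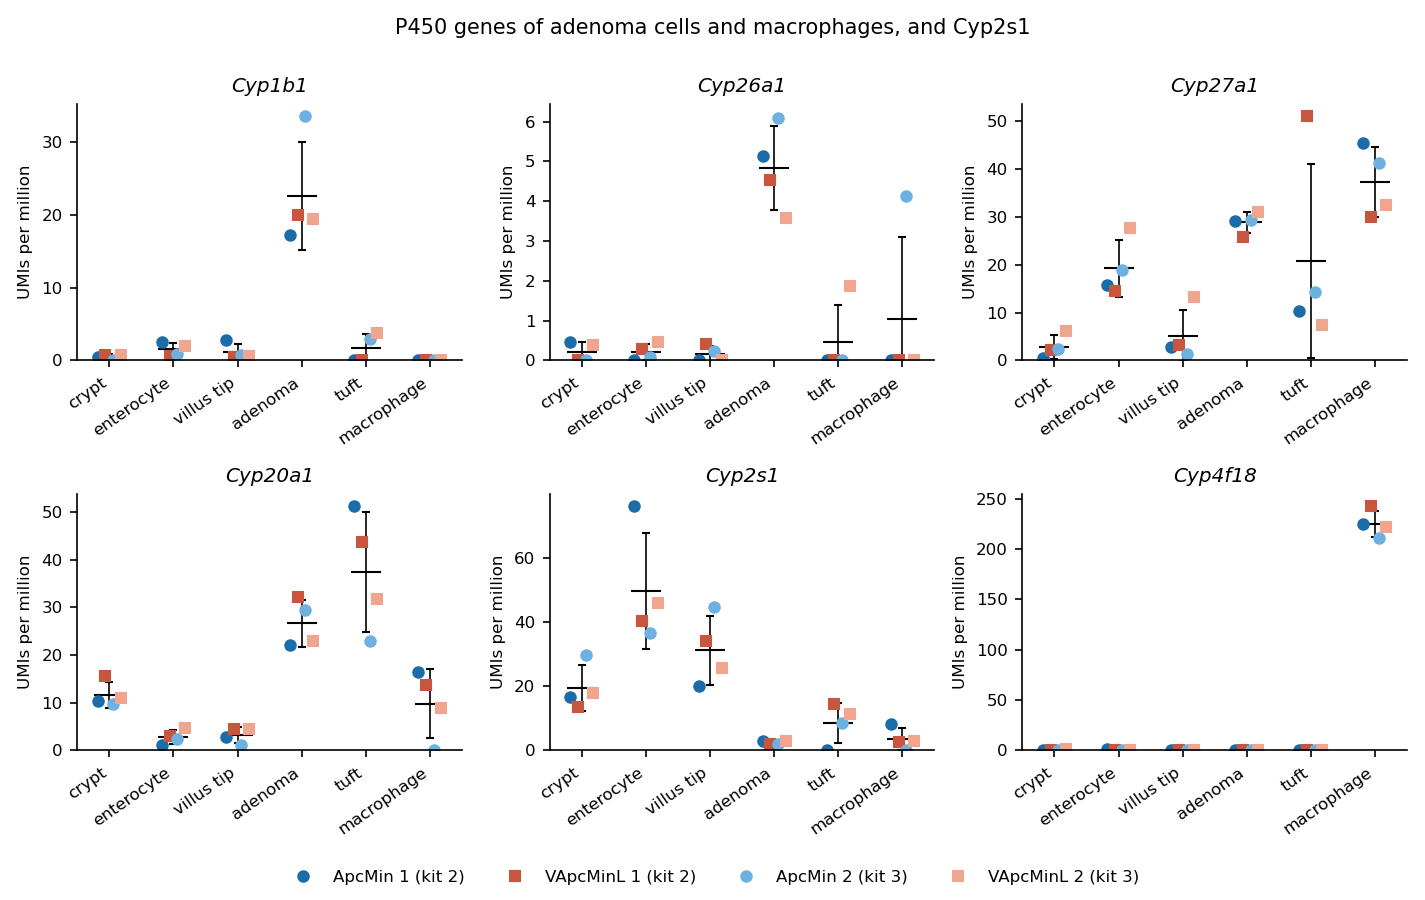
CPM of 6 P450 genes in each cell class, 1 point per library (circles ApcMin, squares VApcMinL, dark kit 2, light kit 3), with bars for the mean and SD of the 4 libraries. Cyp1b1 and Cyp26a1 have their highest means in adenoma cells (the 1 raised macrophage point of Cyp26a1 is 1 UMI), Cyp2s1 is lower in adenoma cells than in crypt cells in every library, and Cyp4f18 stands between 211 and 243 in macrophages.

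Along the villus, the comparison of villus-tip cells with the other enterocytes asked whether the P450 genes follow the final stage of the enterocyte. Most fell, and 4 rose. Of 26 genes tested, 18 were lower at the tip (28.3% of 10046 genes were lower) and 4 were higher (25.6% were higher), with a median of -1.17 against -0.10 for all genes. With library totals alone the median of all genes was -0.34, and 19 P450 genes were lower and 4 higher. Of all 10046 genes, 3981 were lower and 1884 higher with that scaling.

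The CYP3 genes split. Cyp3a13 stood at 552, 651, 488 and 387 in villus-tip cells, above the other enterocytes of the same library in all 4 (log2 difference 0.96 ± 0.14, adjusted p = 4.07e-05). Cyp3a11 stood at 114, 380, 104 and 128, below the other enterocytes of the same library in all 4 (log2 difference -1.12 ± 0.17, adjusted p = 6.29e-05). Cyp3a25 stood at 137, 107, 96.6 and 135 and fell by 1.18 on the log2 scale.

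The Cyp4f genes split as well. Cyp4f14 stood at 132, 162, 183 and 192 at the tip and fell by 1.25 ± 0.14 on the log2 scale. Cyp4f16 stood at 149, 126, 122 and 143, above its level in the other enterocytes in every library (log2 difference 0.62 ± 0.13). Cyp4f13 stood at 42.9, 28.4, 25.3 and 30.2, a log2 difference of 0.03 ± 0.15. These 3 genes of the same run thus had differences of opposite sign or near 0. Cyp4v3 stood at 65.8, 102, 48.3 and 62.9 (log2 difference -1.39 ± 0.14), and Cyp4f40 and Cyp4a10 had log2 differences of -1.70 ± 0.26 and -1.85 ± 0.39.

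The steepest falls were in the CYP2 family. Cyp2u1, a fatty acid hydroxylase, went from 11.3, 4.57, 14.5 and 15.9 in the other enterocytes to 0, 1.23, 0.451 and 1.89 (log2 difference -3.35 ± 0.45, 8 UMIs at the tip). Cyp2b10 went to 8.58, 29.2, 7.45 and 7.55 (log2 difference -2.62 ± 0.25, adjusted p = 7.80e-07). Cyp2c66 went to 8.58, 17.3, 6.09 and 2.52 (log2 difference -2.51 ± 0.20). For each of these 3 genes every tip value lay below every value of the other enterocytes. All 5 genes of the Cyp2c run were lower, with Cyp2c29 at 0, 1.65, 0.677 and 0 (log2 difference -2.80 ± 0.48) and Cyp2c65 at -1.17 ± 0.15. Cyp2c55 was far higher at the tip in VApcMinL replicate 1 (56.4) than in the other libraries (from 5.72 to 12). Cyp2j9 had 3 UMIs at the tip and a level 9.82 times lower, with a counting interval from 3.29 to 48.2. Cyp2s1 had a log2 difference of -0.12 ± 0.24.

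Of the rare genes, Cyp21a1, the steroid 21-hydroxylase of the adrenal gland, stood at 17.2, 1.23, 1.13 and 7.55 at the tip and at 0, 0.295, 0.0438 and 0.455 in the other enterocytes. It rested on 26 UMIs at the tip (log2 difference 4.34 ± 0.69, adjusted p = 0.000101) and could not be tested without ApcMin replicate 1 or VApcMinL replicate 2. Cyp1a1 stood at 2.86, 4.12, 9.93 and 0 at the tip, higher than in the other enterocytes in ApcMin replicates 1 and 2 and lower in VApcMinL replicate 1. In VApcMinL replicate 2 the 0 at the tip allows up to 1.89 CPM, above the other enterocytes, so no direction can be read. The call of Cyp1a1 (log2 difference 1.59 ± 0.55, adjusted p = 0.0253) was lost in DESeq2, without ApcMin replicate 1 and without ApcMin replicate 2, where the difference was 0.06. Cyp27a1 stood at 2.86, 3.29, 1.35 and 13.2 at the tip, below the other enterocytes of the same library in all 4 (log2 difference -1.91 ± 0.33).

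In the order crypt, intermediate, enterocyte and villus tip, which was set by markers and not by time, the genes had different shapes. Cyp3a13 stood at 83.0, 56.6, 69.7 and 39.5 in intermediate cells and rose at each step in every library. Cyp4f14 stood at 163, 82.4, 176 and 151 there, and Cyp2c65 at 85.3, 67.2, 81.3 and 30.4. Cyp2b10 stood at 2.35, 2.76, 5.22 and 6.38 in intermediate cells, so its level was high in the enterocyte class alone. Cyp4f40, at 19.6, 9.67, 17.5 and 16.7 in intermediate cells, was near its enterocyte level in all 4 libraries. Cyp2s1, at 41.5, 29.0, 33.5 and 23.8, was below its enterocyte level in each library. With a mitochondrial limit of 10%, 13 of 20 tested genes were called in place of 22 of 26. The share over all genes is not given for this limit. The calls of Cyp4f16 (log2 difference 0.26), Cyp2j6, Cyp3a25 and Cyp4b1 were then lost, and that of Cyp4f16 also with doubled gate limits.

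**Figure D4:**
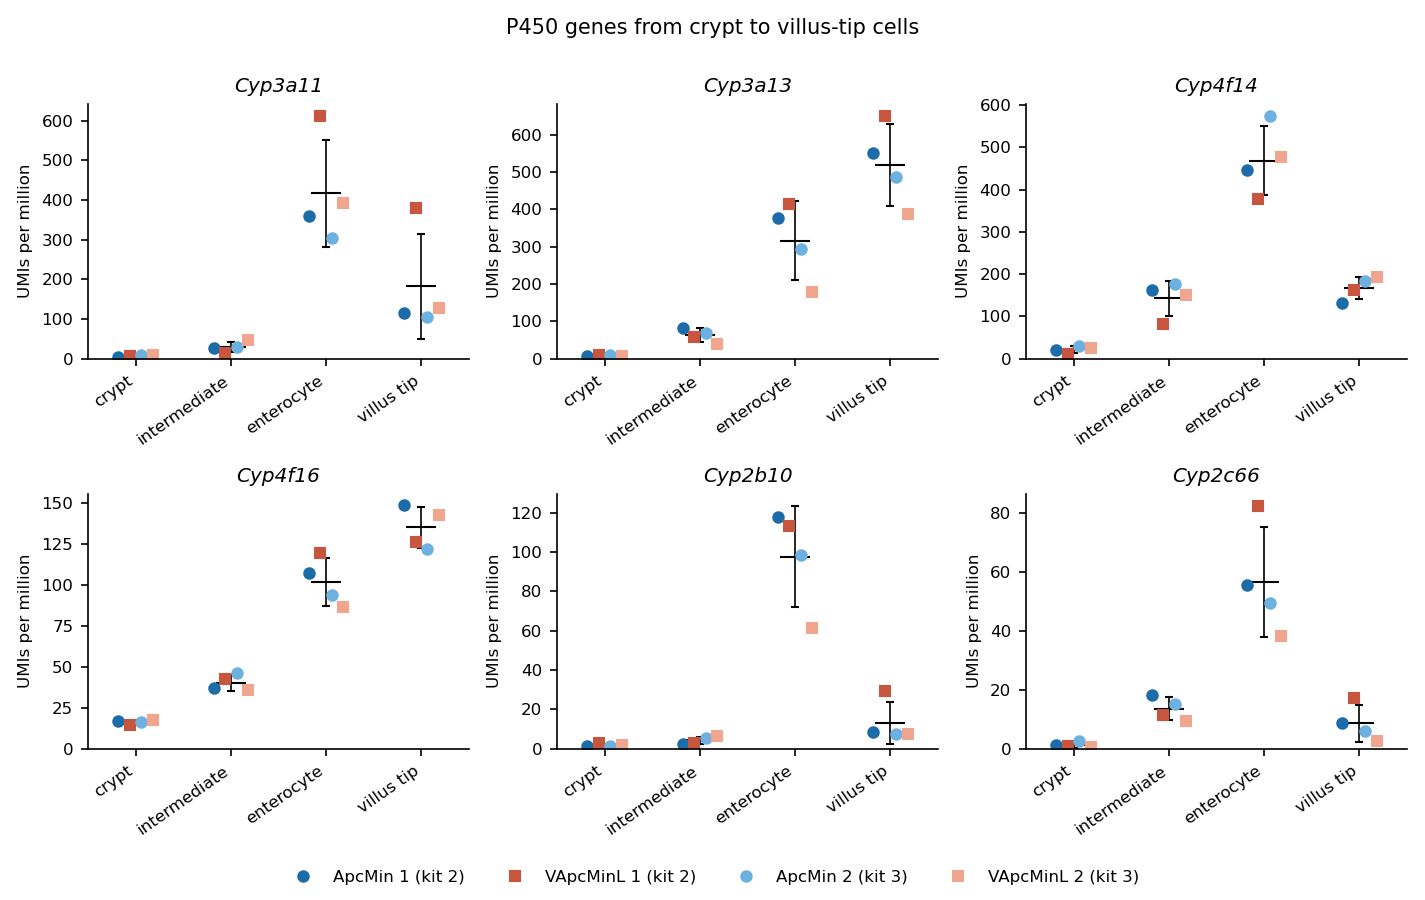
CPM of 6 P450 genes in crypt, intermediate, enterocyte and villus-tip cells, 1 point per library (circles ApcMin, squares VApcMinL, dark kit 2, light kit 3), with bars for the mean and SD of the 4 libraries. Cyp3a13 and Cyp4f16 are highest at the tip, and the other 4 genes peak in the enterocyte class.

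Tuft cells, the chemosensory cells of the epithelium, were compared with adenoma cells, and Cyp4f14 was the gene called higher. The kit 2 libraries held 9 and 14 tuft cells and were left out of the test, so it rests on the 2 kit 3 libraries. Of 21 genes tested, 1 was higher (8.54% of 12302 genes were higher) and 2 were lower (8.76% were lower). The median was 0.24 against -0.09 for all genes. Cyp4f14 stood at 51.2, 36.5, 57.6 and 18.7 in tuft cells (40 UMIs), above every adenoma library, with a log2 difference of 2.59 ± 0.51 (adjusted p = 0.000123 in edgeR). Cyp1b1 had 3 UMIs in tuft cells and was 6.48 times lower with a counting interval from 2.21 to 31.5. Cyp27a1 stood at 14.4 and 7.47 in the kit 3 libraries and had a log2 difference of -1.61 ± 0.46, but at 10.2 and 51.1 in the kit 2 libraries it lay on both sides of the adenoma cells. DESeq2 called 1 of the 3, Cyp4f14. The 12 reference genes of enterocytes summed to 2971, 2363, 2726 and 2205 CPM in tuft cells, and their part in the level of Cyp4f14 was not tested. Cyp20a1, at 51.2, 43.8, 23.0 and 31.7, overlapped with adenoma cells (log2 difference 0.09 ± 0.35).

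Among the 6 classes, Cyp4f18 was high in macrophages. Cyp4f18 (chr8:71988482-72009626, minus strand), a leukotriene B4 hydroxylase of myeloid cells, stood at 225, 243, 211 and 222 in macrophages and at 1.46, 0.738, 0.0876 and 0.0911 in enterocytes, without overlap (log2 difference 8.96 ± 0.37, adjusted p = 2.63e-15). Outside the 6 classes it stood at 60.5 (exact Poisson 95% interval from 37.0 to 93.5, 20 UMIs) in 69 mast cells. It was at 0 in tuft cells and at most 1.17 in any library of crypt, adenoma or villus-tip cells. It lies on another chromosome than Cyp4f14, the Cyp4f gene that led in enterocytes and had 3 UMIs in all macrophages. Of 23 genes tested, 2 were higher in macrophages (28.2% of 9947 genes were higher) and 20 were lower (32.6% were lower), with a median of -5.83 against -0.05 for all genes. The median is -4.31 with genes at 0 in macrophages set to the limit that 3 UMIs allow. Macrophages held from 241881 to 485048 UMIs per library, and many of the genes called lower had at most 3 UMIs there. Such genes entered the test mainly through enterocytes, so these counts describe the tested genes only. Cyp2c68, Cyp4f40, Cyp2u1 and Cyp4a10 had 0 UMIs in macrophages, which makes them at least 35.5-fold, 8.07-fold, 6.25-fold and 2.88-fold lower.

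Cyp27a1, which makes ligands of the LXR receptors in macrophages, stood at 45.4, 30.0, 41.3 and 32.5, above enterocytes in every library, but its log2 difference of 0.63 ± 0.30 did not pass (adjusted p = 0.0692). It passed with library totals as the scaling and with a mitochondrial limit of 10%. Cyp20a1 stood at 16.5, 13.6, 0 and 8.86 and was called higher (1.5 ± 0.64, adjusted p = 0.0481), a call lost in 6 alternatives (log2 difference from 0.75 to 1.45). Cyp4v3 and Cyp4f16, at 14.4, 27.3, 24.8 and 38.4 and at 14.4, 30.0, 37.2 and 20.7, were lower than in enterocytes but not near 0. The epithelial marker list summed to 260 to 551 CPM in macrophages, and the 12 reference genes of enterocytes had a median of 0.858% to 2.04% of their enterocyte level. The part of free epithelial RNA in the low values was not tested.

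Genes that work with P450 enzymes were followed from 6 lists, and the counts are given beside those of all genes above. In enterocytes against adenoma cells, 23 of 24 tested genes of conjugation and hydrolysis were higher and 1 was lower (median log2 difference 5.2), among them the glutathione transferase Gsta1 (8.01), the glucuronosyltransferase Ugt2a3 (7.77) and the carboxylesterase Ces1f (7.33). Of 15 receptor genes, 14 were higher and 1 lower (median 4.08). The pregnane X receptor gene Nr1i2 had 4.08, the CAR gene Nr1i3 6.04, Ppara 6.09, the vitamin D receptor gene Vdr 6.25 and Hnf4a 2.91. The lower gene was Ahr, the aryl hydrocarbon receptor, at -0.74. Of 12 redox partners and haem supply genes, 8 were higher and 2 lower (median 1.81), with the reductase gene Por at 2.17. Of 14 PPAR alpha genes, 13 were higher and 1 lower (median 2.44), of 16 retinoid genes 9 were higher and 6 lower (median 1.47), and of 21 cholesterol synthesis genes 8 were higher and 4 lower (median 0.07). The retinoid list holds Rbp2, a marker of the enterocyte gate, and the PPAR alpha list holds Creb3l3, a marker of the villus-tip gate.

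In adenoma against crypt cells the receptor genes were mainly lower, 10 of 15 with 1 higher (median -2.14), with Vdr at -4.53, Hnf4a at -2.35 and Ahr at 0.77 as the gene that was higher. Conjugation genes were lower for 18 of 23 and higher for 2 (median -1.97). The redox list had 2 higher and 2 lower of 12, the PPAR alpha list 8 lower and 0 higher of 14, and the cholesterol list 9 higher and 1 lower of 21. The retinoid list held 5 higher and 7 lower of 15. Aldh1a2, which makes retinoic acid, had a log2 difference of 6.39, the retinol uptake receptor gene Stra6 of 6.31, and the retinol carrier gene Rbp4 of 4.00, while Lrat, which esterifies retinol, had -4.42.

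At the villus tip 17 of 24 conjugation genes were lower and 0 higher (median -0.93), and 8 of 13 retinoid genes were lower and 3 higher (median -0.99). The receptor list had 8 lower and 4 higher of 15, with Nr5a2 at -3.12 and with Hnf4a at 1.19 and Ahr at 1.11. The redox list had 7 lower and 3 higher of 12, with Por higher at 1.68, the haem synthesis gene Alas1 at 0.95 and the cytochrome b5 gene Cyb5a at -1.75. The PPAR alpha list had 9 lower and 2 higher of 14, and the cholesterol list 4 lower and 7 higher of 21. In tuft against adenoma cells 10 of 23 conjugation genes were higher and 1 lower, 4 of 14 receptor genes were higher and 1 lower, and the other 4 lists had at most 2 higher and 4 lower genes. In macrophages against enterocytes 23 of 25 conjugation genes were lower and 1 higher, and 10 of 16 receptor genes were lower and 3 higher. Ahr was higher at 2.80, its repressor gene Ahrr at 6.43 and the haem oxygenase gene Hmox1 at 5.52.

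The VApcMinL libraries were compared with the ApcMin libraries, labels that differ in Lef1 genotype. Lef1 itself, a transcription factor gene of the Wnt pathway, stood at 9.83, 31.7, 35.9 and 22.6 CPM in adenoma cells. It was thus higher in the library labelled VApcMinL than in that labelled ApcMin with kit 2 and lower with kit 3. A 3′ count can include transcripts that lack floxed exons, so it does not check the deletion fully, and the libraries are named by their labels. Xist, a transcript of females, stood at 0.174, 1197, 0.0725 and 330 in adenoma cells, although all libraries are labelled male. It was thus high in both VApcMinL libraries and low in both ApcMin libraries, and Villin-Cre is named for the VApcMinL libraries alone. Loss of Lef1, Cre and sex can therefore not be told apart in the comparison of the labels.

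No P450 gene was called between the labels. With the kit as a block, edgeR called 0 of 29 P450 genes in enterocytes, where 0.00928% of 10779 genes were called, 0 of 13 in crypt cells, where 0.529% of 9645 genes were called, and 0 of 26 in adenoma cells, where 0% of 12828 genes were called. At an unadjusted p under 0.05 there were 2, 0 and 0 P450 genes, and DESeq2 called 0 in each class. The medians were -0.22, -0.01 and -0.02. The 2 genes at an unadjusted p under 0.05 were Cyp4f40 (log2 difference -0.89 ± 0.30) and Cyp4b1 (-0.59 ± 0.20) in enterocytes. Cyp3a11 had 0.49 ± 0.26 and Cyp20a1 1.07 ± 0.54 in enterocytes, and in adenoma cells Cyp1b1 had -0.31 ± 0.29 and Cyp2a5 -1.06 ± 0.53. Of the 6 lists of genes that work with P450 enzymes, members were called in crypt cells alone, all higher in the libraries labelled VApcMinL. They were 1 of 23 conjugation genes, 2 of 11 PPAR alpha genes and 1 of 12 retinoid genes, among them Gsta4, Acadl and Adh1. Over all genes, the comparison in crypt cells gave 51 calls in edgeR and 2 in DESeq2. With 2 libraries per label, the SEs of the P450 genes leave room for differences of the sizes given.

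The difference between the labels was also taken within each kit. Of 24 P450 genes with at least 20 UMIs in both kits in enterocytes, 9 differed between the labels in the same direction in both kits and 15 in opposite directions. In adenoma cells 5 of 21 went in the same direction and 16 in opposite ones, in crypt cells 4 of 10 and 6, and at the villus tip 7 of 17 and 10. None differed by over 2-fold in the same direction in both kits. The same counts were not made over all genes, so whether these directions are particular to P450 genes was not tested. In a test of whether the difference between villus-tip and other enterocytes depended on the label, added after seeing the data, no P450 gene was called. At an unadjusted p under 0.05 there were 12 of 26, against 488 of 10046 genes, and the lowest adjusted p of a P450 gene was 0.287.

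**Figure D5:**
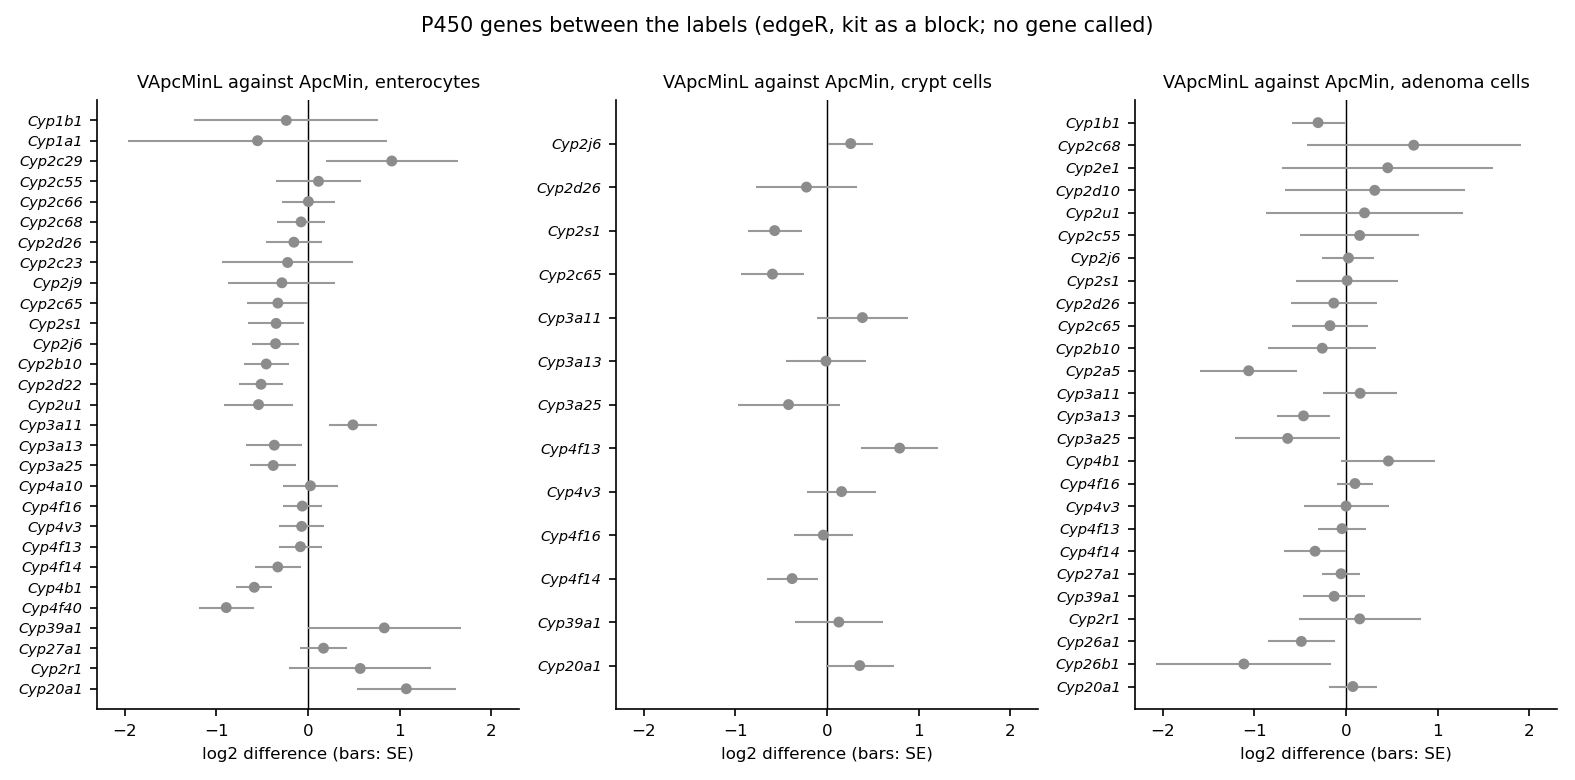
Log2 difference of VApcMinL against ApcMin libraries (horizontal axis, bars are SE, kit as a block in edgeR) for each P450 gene tested in enterocytes (29), crypt cells (13) and adenoma cells (26). No gene is called, and most differences lie within 1 log2 unit of 0.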

How the data were processed

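The authors deposited raw UMI counts, whole numbers of UMIs per gene and barcode, for all barcodes of 4 libraries. Per the submitters' notes and methods, reads were aligned to mm10 with Cell Ranger 2.1.1 and analysed with Seurat 3.1.1, while the kit 3 matrix headers name Cell Ranger 3.1.0. Library totals ran from 44660305 to 128247396 UMIs. The genes, lists and tests were chosen with earlier results of these data known.

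Gates used summed markers per 10000 UMIs of a barcode: at least 150 for enterocytes (villus tip: also 50 of its own list), from 50 to under 150 for intermediate cells, at least 5 for crypt cells (with under 1 of the adenoma list) and for adenoma cells, 10 for tuft cells and 50 for macrophages. Epithelial classes also needed 20 of the epithelial list. Doublets were removed in an alternative only (Scrublet, scanpy 1.11.5).

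Sums of UMIs over the cells of each class and library were tested in R 4.3.3 by edgeR 4.0.16, quasi-likelihood method (TMM scaling, expression filter at a minimum count of 10, library or kit as a block, Benjamini-Hochberg adjustment over all genes tested). A library with under 20 cells of a class was left out. The kit pairs the replicates per the labels, and deviations of kit partners correlated at r = 0.21 over 8108 genes, which are not independent. DESeq2 1.42.0, other scalings, filters, gates, depths, thinning and leaving out each library were alternatives. On simulated data with 200 genes changed by 1.5 log2 units, edgeR recovered 188 with 5 false calls for enterocytes against adenoma cells (12787 genes) and 149 with 6 false calls for the labels in adenoma cells (12556 genes). The simulation set a dispersion of 0.05 for every gene, with no library or kit effect. These counts check the code and do not give the power of the real comparisons. Ratios with 1 to 3 UMIs have exact 95% intervals, and limits beside 0 assume 3 UMIs over all libraries of a class. Both cover counting error only.

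Genes were named by rule: the 20 with the highest level in their highest class, any called between labels, and the 3 highest rises and falls per class comparison. Others were chosen after their values were seen. Some genes of the lists are not reported here. Sums of enterocytes and adenoma cells enter several comparisons, which are therefore not independent.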

Additional observations from a re-analysis of the deposited data

Results flagged for a closer look

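For 8 P450 genes with at least 20 UMIs in another kind of cell, outside the 6 classes, the summed level there was above that in each of the 6 classes. Genes with fewer UMIs in the other kind of cell, such as Cyp26a1 in endothelial cells, were left out. The levels below are CPM (UMIs per 1000000 UMIs) over the 4 libraries, each with an exact Poisson 95% interval that covers counting error only, and they were not tested.

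Cyp11a1, which makes pregnenolone from cholesterol, stood at 281.5 (227 to 345) in 69 mast cells, from 93 UMIs in 3 libraries, against 1.79 in its highest class of the 6. It stood at 188, 324 and 248 in the first 3 libraries and at 0 in VApcMinL replicate 2, which held 1 mast cell. Cyp26b1, which breaks down retinoic acid, stood at 215.8 (185 to 250) in 128 endothelial cells, but 94 of its 174 UMIs came from 6 cells of ApcMin replicate 2.

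In 177 fibroblasts, Cyp1b1 stood at 64.74 (52.9 to 78.4), Cyp20a1 at 36.73 (28.0 to 47.4) and Cyp7b1, an oxysterol hydroxylase, at 34.86 (26.3 to 45.3), each seen in all 4 libraries. Cyp1b1 stood at 21.2 in adenoma cells on the same scale. In 131 Paneth cells, Cyp27a1 stood at 39.36 (33.0 to 46.7) and Cyp2a5 at 27.23 (22.0 to 33.4). The Paneth and adenoma gates share the marker Mmp7. Cyp4b1 stood at 78.19 (55.3 to 107) in 50 enteroendocrine cells, from 38 UMIs in 3 libraries.

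Some of these levels were not distinguished from a class or from free RNA. Cyp20a1 stood at 31.5, 37.8, 32.6 and 31.5 in the free-RNA barcodes of the 4 libraries and at 33.2, 24.7, 46.9 and 47.0 in fibroblasts, and its interval holds the level of 32.2 in tuft cells. Cyp4b1 stood at 119, 121, 53.1 and 47.7 in the free-RNA barcodes and at 103, 0, 123 and 60.2 in enteroendocrine cells. The interval of Cyp27a1 in Paneth cells holds its level of 37.7 in macrophages. Cyp1b1 in fibroblasts of VApcMinL replicate 2 was at 11.8, from 2 UMIs. In the free-RNA barcodes Cyp1b1 stood at most at 9.75, Cyp27a1 at 15.2, Cyp26b1 at 12.6, Cyp11a1 at 6.69, Cyp7b1 at 2.7 and Cyp2a5 at 1.15.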

How the results depend on the processing

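The class comparisons gave similar counts of called P450 genes under most alternatives, with these exceptions. In adenoma against crypt cells, thinning each cell to 2000 UMIs left 4 genes to test, of which 1 was called. In villus-tip against other enterocytes, a mitochondrial limit of 10% gave 13 calls. In tuft against adenoma cells, DESeq2 gave 1 call and thinning 0 of 3 tested, while all 4 libraries with no minimum of cells, an alternative chosen after seeing the data, gave 6 (2 higher, 4 lower). Shares over all genes are not given beside these exceptions, so whether they are particular to P450 genes was not tested. Leaving out each library gave from 27 to 31 calls for enterocytes against adenoma cells, from 10 to 12 for adenoma against crypt cells and from 20 to 22 for the villus tip. It was not run for tuft cells, where leaving out 1 of the 2 libraries leaves no residual degrees of freedom. The fit without the kit as a replicate block gave 0 P450 calls in all 3 comparisons of the labels, as did leaving out each library. The label comparison in crypt cells had no P450 gene to test after thinning.

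Of 1032 alternative values of the 84 named differences that passed the test, 1009 kept direction and call, 23 lost the call and 0 reversed. Differences that did not pass, such as that of Cyp27a1 between enterocytes and adenoma cells, are not in this count. Thinning moved the mean level of 6 of 29 named genes by over 1 SD. Over all genes, the label comparison in crypt cells gave 51 calls in edgeR and 2 in DESeq2. With library totals alone in place of TMM, calls over all genes went from 4478 higher and 5173 lower to 2750 and 7631 for enterocytes against adenoma cells, from 2573 and 2845 to 1884 and 3981 at the villus tip, and from 2808 and 3239 to 3670 and 2613 for macrophages. The causes were not tested. Few UMIs limit the rare genes, and few cells and UMIs the tuft cells.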

Other observations

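Cyp2e1, which oxidises ethanol, was seen mainly with kit 2, at 1.65, 1.48, 0 and 0.0965 CPM in adenoma cells and at 1.10, 2.80, 0.131 and 0 in enterocytes. The genes that make and break down active vitamin D were rare. Cyp27b1, the 1-alpha-hydroxylase, had 9 UMIs in adenoma cells and 0 in enterocytes. Cyp24a1, the 24-hydroxylase, had 4 UMIs in adenoma cells and 2 in enterocytes. Adenoma cells held more UMIs in sum than enterocytes, so these counts do not compare levels. Of the 6 classes, Cyp24a1 was highest in enterocytes, at 0.0462 CPM.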
